A study of Mus musculus with 17 samples.

Results

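The dI4 interneurons of the mouse spinal cord, an inhibitory class of the dorsal horn, were compared at postnatal day 5 (P5) and at birth (P0). The comparison used 5 of the 17 arrays of the series, 2 at P5 and 3 at P0, chosen by their class and age labels alone. All 5 came from Ptf1a-Cre; Rosa.lsl.YFP mice, in which Cre made from the Ptf1a locus switches on YFP permanently in the cells that expressed it and in their progeny. The V1 arrays of En1-Cre; Rosa.lsl.YFP mice, 3 at P5 and 3 at P0, served only to show where the dI4 change differed. YFP-positive cells were taken by fluorescence-activated sorting from dissociated spinal cords, and 1 to 5 ng of their RNA was amplified before hybridization to Affymetrix mouse expression arrays. The labels do not say how many animals went into an array, so p-values measure the spread between arrays labelled as biological replicates.

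Ptf1a is a transcription factor expressed as dI4 progenitors leave the cell cycle in the dorsal spinal cord, and it directs them to a GABAergic and glycinergic fate at the expense of a glutamatergic one. The neurons settle in the dorsal horn, where they restrain touch, itch and pain signals. The first postnatal days are a time in which spinal axons reach their targets, receptor subunits are exchanged, astrocytes mature and oligodendrocytes begin to wrap axons with myelin. Neuronal and glial genes are therefore described apart here.

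Values are log2 expression per gene after the 5 arrays were quantile normalized together, since the deposited values of the ages looked separately normalized. The deposited array medians were 5.30 and 5.23 at P5 and 5.51 to 5.56 at P0. Age coincides with that normalization and with any processing by age, and these cannot be told apart. The median of 9 hybridization spikes, which should be alike on every array, was 14.36 and 14.69 at P5 against 15.09 to 15.16 at P0 in the deposited values. After the joint normalization it was still 14.37 and 14.71 at P5 against 15.10 to 15.13 at P0. The Gapdh 3′ minus 5′ probe set difference, a sign of RNA or amplification quality, was 0.89 and 0.62 at P5 and 1.15 to 1.81 at P0. P0 replicates 1 and 2 were closer than any other pair, with 116 of 11592 genes at least 2-fold apart and a correlation across genes of 0.992. The other pairs within an age had 833 to 985 such genes. Pairs of different ages had 3125 to 3821. Counts are therefore also given with P0 replicates 1 and 2 averaged and counted once, an alternative chosen after seeing the data. The 2 P5 arrays shared 1348 identical deposited values over 45101 probe sets, against 0 to 6 for every other pair. The cause, and any effect on the spread between the P5 arrays, was not tested. Background was taken as the highest of 12 bacterial control probe sets, 2.36 to 2.52 by array, called the control level below.

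The markers of the class were checked first. Gad2, which makes GABA, was at 13.93 and 14.17 at P5 and at 14.35, 14.33 and 14.18 at P0. Slc6a5, the glycine transporter of glycinergic terminals, was at 10.64 and 11.13 at P5 and at 10.88 to 11.07 on the 3 P0 arrays. Both inhibitory markers were thus high on every array. Ptf1a itself was at the control level on all 5 arrays, at 2.27 and 2.11 at P5 and 2.05 to 2.07 at P0, and En1, which marks V1 cells, was at 3.47 and 2.61 at P5 and 2.48 to 2.56 at P0. The 7 motor neuron markers, Chat and Isl1 among them, and the excitatory factors Tlx3 and Tlx1 gave no tested gene. Of 18 listed excitatory markers 10 were nevertheless tested, among them the factors Pou4f1, Prrxl1 and Lmx1b described below. Slc17a6, the vesicular glutamate transporter of excitatory spinal neurons, was at 9.95 and 10.57 at P5 and at 11.20, 11.12 and 11.22 at P0. Astrocyte and oligodendrocyte genes were also present at both ages, as described below. Fewer cells of a type and less RNA per cell cannot be told apart in these bulk samples.

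Of 11592 genes tested, 4517 (39.0%) differed between P5 and P0 at a limma adjusted p under 0.05. Of these 1940 (16.7%) were higher and 2577 (22.2%) were lower at P5, and at least 2-fold changes numbered 1353 and 1418. For 7608 genes (65.6%) the arrays of the ages did not overlap, with P5 above P0 for 27.8% of all genes and below for 37.9%. The median difference over all genes tested was -0.11. It was -0.21 with the deposited values and 0.06 with each array centred on its median, so list medians are to be read against these. List counts are to be read against the 16.7% higher and 22.2% lower. Those shares were 10.1% and 11.1% without P0 replicate 1, and 9.33% and 9.42% without P0 replicate 2. With P0 replicates 1 and 2 counted once, 1162 genes were called higher and 1229 lower, and leaving out P0 replicate 1, P0 replicate 2 or P5 replicate 1 gave 2454, 2173 and 2686 calls in all.

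Glial genes were mostly higher at P5, and neuronal genes were called lower more often than higher. Of 46 tested astrocyte and oligodendrocyte markers, 43 (93.5%) were called higher at P5, none was called lower, and their median difference was 4.38. A gene was tested if above the array median on at least 2 of 5 arrays, which the 2 P5 arrays alone can meet. Genes high only at P5 could thus enter, and genes low at both ages could not. With no filter 39 of 49 (79.6%) were called higher and none lower, against 13.8% and 18.9% of all genes. Of 234 tested genes in 13 neuronal lists, 22 (9.40%) were called higher and 75 (32.1%) lower, with a median of -0.40. With P0 replicates 1 and 2 counted once, 37 glial genes were higher, and 12 neuronal genes were higher and 45 lower, against 10.0% and 10.6% of all genes. Leaving out P0 replicate 1 or 2 left 11 neuronal genes higher each time, with 45 and 39 lower. In the plot of listed genes the oligodendrocyte lists stand farthest to the right and most neuronal lists lie left of the median of all genes.

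**Figure D1:**
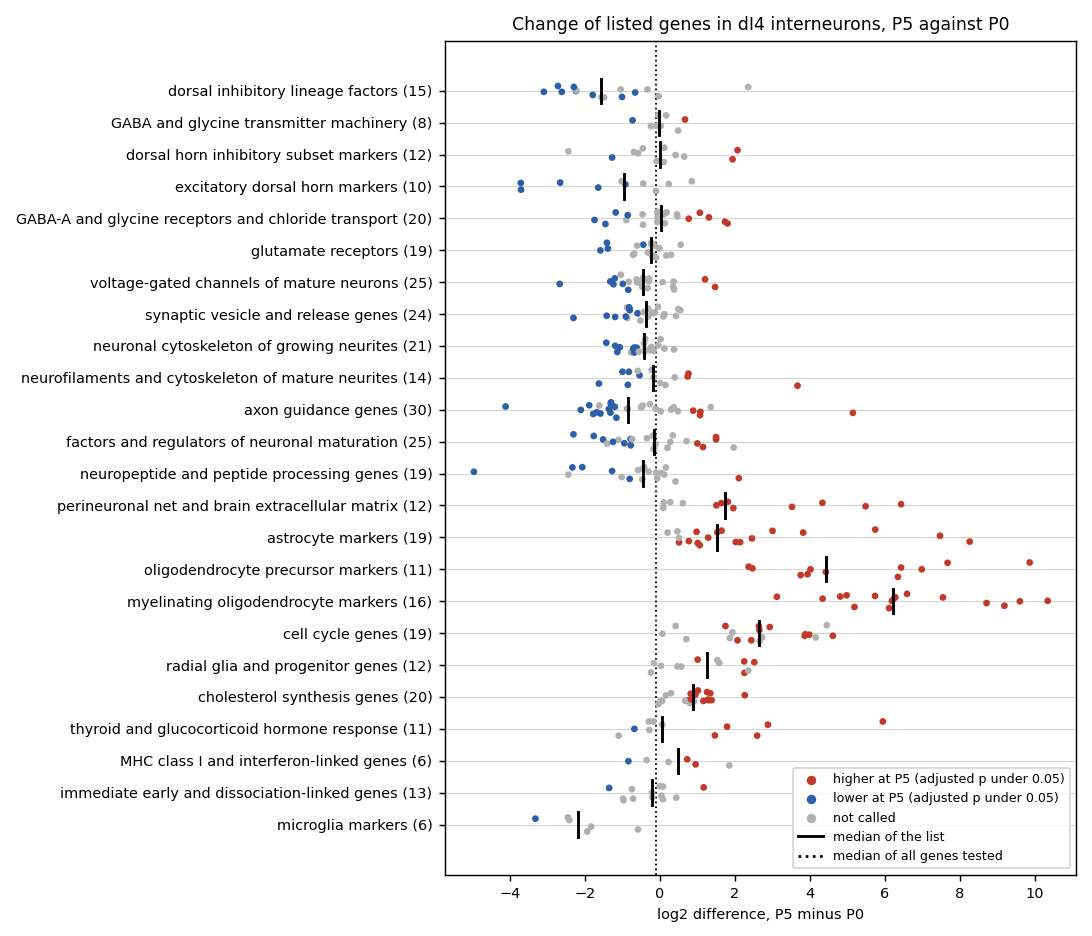
Difference between P5 and P0 (log2, horizontal axis) of each tested gene in lists with at least 3 tested members, in dI4 interneurons (2 arrays at P5, 3 at P0). The endothelial and pericyte list and the meningeal and fibroblast list, with medians of 2.35 and 2.03, are not drawn. The number in brackets is the genes tested, red and blue points are genes called higher and lower at P5, and black bars are list medians, 6.21 for myelinating oligodendrocyte markers and -1.56 for dorsal inhibitory lineage factors, against -0.11 for all genes (dotted line).

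Myelin genes made the largest rises. All 16 markers of myelinating oligodendrocytes that passed the filter, of 18 listed, were called higher at P5. Their median difference was 6.21, with a range of 3.12 to 10.35. Those at or near the control level at birth passed it through the P5 arrays alone. Mag, an adhesion protein of the innermost myelin wrap, was at 12.60 and 13.77 at P5, against 2.65, 2.98 and 2.89 at P0. Its difference of 10.35 ± 0.37 (SE) was the largest rise without overlap between the ages (limma adjusted p = 2.39e-04). Mobp, a protein of compact myelin, was at 12.80 and 14.04 at P5, against 5.32, 4.63 and 4.17 at P0. Both genes were thus near the control level or low at birth and high at P5.

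Mal and Fa2h, which sort proteins and hydroxylate lipids of the myelin membrane, rose by 9.19 ± 0.73 and 9.60 ± 0.43 (SE). Mbp, which compacts the myelin sheath, was at 15.34 and 15.50 at P5, against 11.08, 11.51 and 8.10 at P0. Mbp was thus already well above background at birth, lowest in P0 replicate 3. Mog, which appears late on the outer sheath, was at 7.41 and 10.97 at P5, and at 2.52, 2.63 and 2.65 at P0. P5 replicate 2 was thus higher than P5 replicate 1 by over 3 log2 units, and it was the higher array for Mag, Mobp and Mal as well. Myrf, the transcription factor that drives myelin genes, was at the control level at P0 and at 7.32 and 9.33 at P5, at least 61.1-fold higher. For genes at the control level at 1 age, folds are bounds against the higher of the control level and the measured value. The Mbp call was lost without P5 replicate 1, with a difference of 5.27, and without P5 replicate 2, with 5.08.

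The promoters of myelin genes are shown because these genes moved together and because SOX10 and MYRF are known to bind near them in rodents. The 250 bases before the annotated start were searched on both strands for ACAAAG (reverse strand CTTTGT), the core read by SOX factors, and for CTGGCAC (reverse strand GTGCCAG), a core read by MYRF. In 27025 genes of the RefSeq promoter table (GRCm38.p6), 18.6% held the first and 4.83% the second. Of the 10 called myelin markers matched there, 3 held the first and 1 the second, of 8 called precursor markers 1 and 1, and of 13 called astrocyte markers none held either. Mag on the minus strand at chr7:30914864-30915113 and Cnp on the plus strand at chr11:100574689-100574938 hold both, and Mobp on the plus strand at chr9:120149492-120149741 holds the SOX core 6 times. The matches start 126 (SOX core) and 68 (MYRF core) bases before the start in Mag and 167 and 81 in Cnp, and do not overlap. Matches are in capitals below, and each is a match of letters only.
Mag: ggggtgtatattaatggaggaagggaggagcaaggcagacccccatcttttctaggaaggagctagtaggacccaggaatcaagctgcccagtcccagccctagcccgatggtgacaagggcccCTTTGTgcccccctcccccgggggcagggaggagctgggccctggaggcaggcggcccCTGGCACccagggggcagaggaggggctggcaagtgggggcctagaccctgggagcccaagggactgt
Cnp: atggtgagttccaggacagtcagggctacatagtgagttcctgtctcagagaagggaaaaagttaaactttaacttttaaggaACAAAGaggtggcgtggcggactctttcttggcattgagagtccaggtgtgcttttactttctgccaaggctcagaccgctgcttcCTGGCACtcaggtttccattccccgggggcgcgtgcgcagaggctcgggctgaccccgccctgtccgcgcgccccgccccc
Mobp: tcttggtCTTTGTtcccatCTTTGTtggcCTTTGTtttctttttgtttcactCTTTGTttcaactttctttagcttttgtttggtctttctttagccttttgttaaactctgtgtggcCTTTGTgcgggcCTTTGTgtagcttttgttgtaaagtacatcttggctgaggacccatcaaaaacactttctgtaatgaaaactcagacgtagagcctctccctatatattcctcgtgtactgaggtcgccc

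Genes of oligodendrocyte precursors and of cells newly committed to myelination rose together with them. All 11 precursor markers that passed the filter, of 12 listed, were called higher at P5, with a median of 4.43. Gpr17, a receptor carried by cells between precursor and myelinating stages, was at 11.96 and 12.73 at P5, against 2.35, 2.33 and 2.76 at P0. Sox10, the factor that fixes the oligodendrocyte lineage, was at 11.39 and 12.07 at P5, against 3.57, 5.84 and 4.82 at P0. Bmp4, a signal made by newly committed cells, was at the control level at P0 and at 9.12 and 10.30 at P5, at least 159-fold higher. At birth Gpr17 and Bmp4 were thus at or near background and Sox10 was low.

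Early precursor genes started higher. Pdgfra, the receptor for the growth factor that keeps precursors dividing, was at 11.73 and 11.80 at P5, against 7.45, 7.91 and 7.87 at P0. The difference was 4.02 ± 0.19 (SE, limma adjusted p = 4.70e-04). Olig2, needed to specify the lineage, was at 10.93 and 11.35 at P5, against 6.82, 7.18 and 7.60 at P0. Olig1, its partner, was at 12.85 and 12.82 at P5, against 9.64, 9.95 and 11.50 at P0, and its call was lost without P0 replicate 1 (2.11), P0 replicate 2 (2.26), P5 replicate 1 (2.46) and P5 replicate 2 (2.49). Arrays of the ages did not overlap for any of the 11 precursor or the 16 myelin markers tested. The same held for 65.6% of all genes, 27.8% with P5 above P0.

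**Figure D2:**
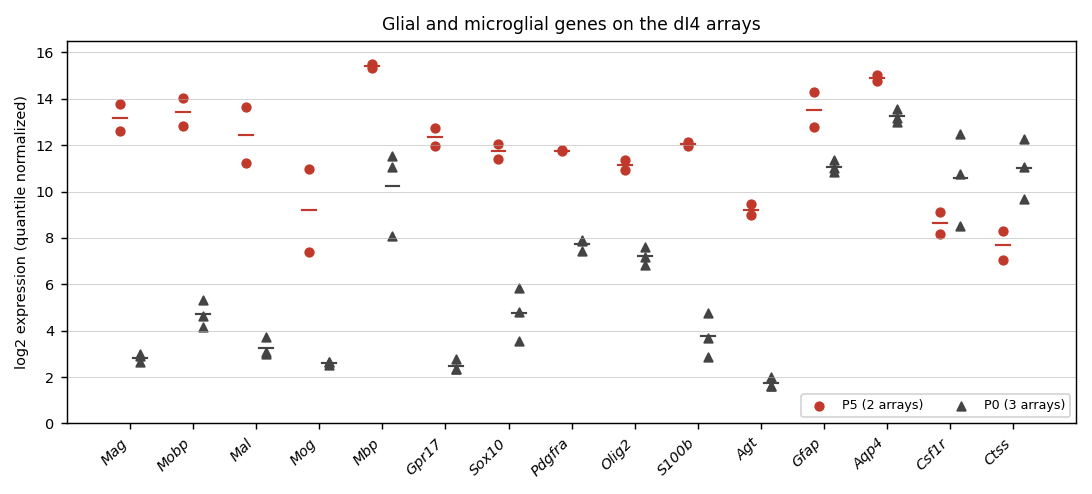
Log2 expression of glial and microglial genes on each dI4 array, P5 (red circles, 2 arrays) left of P0 (grey triangles, 3 arrays), with bars at the means. Mag and Gpr17 lie above 11 at P5 and below 3 at P0, while other myelin and precursor genes such as Mbp, Pdgfra and Olig2 start higher. Gfap and Aqp4 are already above 10 at P0, and the microglial genes Csf1r and Ctss spread widely at P0.

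Astrocyte genes rose less, and many were already strong at birth. Of 19 tested astrocyte markers 16 were called higher, with a median of 1.53, and with P0 replicates 1 and 2 counted once the number was 11. It was 10 without P0 replicate 1. Gfap, the intermediate filament of astrocytes, was at 14.27 and 12.79 at P5, against 11.01, 11.38 and 10.83 at P0, and its call was lost without P0 replicate 1 (2.43). Aqp4, the water channel of astrocyte endfeet, was at 15.01 and 14.79 at P5, against 13.18, 13.56 and 13.01 at P0. The glutamate transporter gene Slc1a2 differed by 0.51 ± 0.14 and Slc1a3 by 1.01 ± 0.28 (SE). The first was lost without P0 replicate 1 (0.49), P0 replicate 2 (0.49), P5 replicate 1 (0.42) or P5 replicate 2 (0.59), and the second without P0 replicate 1 (0.94), P0 replicate 2 (0.92) or P5 replicate 1 (0.66).

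A few astrocyte genes rose from near background. S100b, a calcium-binding protein also made by oligodendrocyte precursors, was at 11.95 and 12.12 at P5, against 3.67, 4.78 and 2.85 at P0. Agt, which encodes angiotensinogen and is made by astrocytes of the caudal brain and cord, was at 9.46 and 8.99 at P5, and at the control level at P0, at least 114-fold higher. Gjb6, a gap junction protein of mature astrocytes, rose by 5.74 ± 0.55 (SE, limma adjusted p = 0.00230). The markers that were not called were Fabp7, Gpc5 and Ndrg2, with differences of 0.47, 0.51 and 0.21.

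Extracellular matrix genes, which neurons and glia share, rose in part. Of 12 tested, 8 were called higher and none lower, with a median of 1.73. Hapln1, a link protein that ties proteoglycans to hyaluronan in perineuronal nets, was at 8.69 and 8.93 at P5, against 3.21, 3.73 and 3.03 at P0. Tnr, which crosslinks these nets and is made largely by oligodendrocyte lineage cells, was at 11.11 and 12.11 at P5, against 7.71, 7.87 and 6.23 at P0. Ncan and Tnc were high at both ages and were not called, with differences of 0.28 and 0.09.

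Genes of dividing cells were also higher at P5. Of 19 tested cell cycle genes 10 were called higher and none lower, with a median of 2.65. The count was 16 without P0 replicate 3, 6 without any 1 of P0 replicate 1, P0 replicate 2 and P5 replicate 1, and 6 with P0 replicates 1 and 2 counted once. Tpx2, a spindle assembly factor, was at 10.97 and 9.16 at P5, against 4.68, 5.15 and 6.54 at P0. Aurkb, a kinase of mitosis, was at 7.15 and 6.15 at P5, against 2.47, 2.49 and 3.36 at P0. Mki67, a marker of proliferation, was at 13.38 and 12.61 at P5 and at 10.30, 10.67 and 12.20 at P0, and was not called (limma adjusted p = 0.0617). P0 replicate 3 was thus the highest P0 array and P5 replicate 1 the higher P5 array for these genes. Among 12 tested radial glia and progenitor genes 4 were called higher, against 16.7% of all genes. Of these Sox2, a factor of neural progenitors and glia, rose by 2.25 ± 0.21 (SE). That count was 1 without P0 replicate 1 or 2, and 2 higher and 1 lower without P5 replicate 1.

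Genes of the cholesterol pathway, whose product is a main lipid of myelin, often rose, by smaller amounts. Of 20 tested, 12 were called higher and none lower, with a median of 0.88, and 6 when P0 replicates 1 and 2 were counted once. The count was 6 without P0 replicate 1, 4 without P0 replicate 2 and 7 without P5 replicate 2. Dhcr7, the last enzyme of 1 branch of the pathway, was at 12.51 and 12.59 at P5, against 10.20, 10.27 and 10.39 at P0. Msmo1, a sterol demethylation enzyme, rose by 1.38 ± 0.17 (SE). The early enzyme gene Hmgcs1 was not called, at 14.21 and 14.18 at P5 and at 14.10 to 14.30 at P0.

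Markers of other cell types were lower or higher at P5 depending on the cell type. Of 16 microglia markers 6 were tested, and Ctss, a lysosomal protease, was the only one called, at 7.05 and 8.31 at P5, against 9.69, 11.05 and 12.26 at P0. Its call was lost without P0 replicate 2 (-3.30), P5 replicate 1 (-2.69) or P5 replicate 2 (-3.93). Csf1r, the receptor that microglia need to survive, was at 8.18 and 9.12 at P5 and at 8.52, 10.74 and 12.49 at P0, so that the ages overlapped and P0 replicate 3 was highest. The summed microglial level was 12.05 and 12.17 at P5 and 12.28, 13.40 and 14.65 at P0, and the defining markers Itgam, Trem2 and Tmem119 were at the control level on every array. Of the endothelial markers, Pecam1, Cdh5 and Cldn5 lay below 2.7 on every array, and the list's 3 called genes, all higher at P5, were Cspg4, Rgs5 and Itm2a, with differences of 6.43, 3.53 and 1.18. Cspg4 is also a precursor marker, the call of Rgs5 was lost without P5 replicate 1 (3.44), and that of Itm2a without P0 replicate 1 (1.19), 2 (1.19) or 3 (1.14). Meningeal and fibroblast markers were on the side of the glial genes. Of 10 such markers 6 were tested and 4 were called higher at P5, with a median of 2.03, and 2 without P0 replicate 2 or P5 replicate 1. The summed level of the list was 13.39 and 13.14 at P5, against 10.75, 10.68 and 11.27 at P0, so that the ages did not overlap. Col1a2, a collagen I chain, was at 12.05 and 11.33 at P5, against 9.47, 9.87 and 10.32 at P0, and its call was lost without P0 replicate 2 (1.79) or P5 replicate 1 (1.45). The others called were Fn1, Igfbp2 and Pdgfra, the last of which is also a precursor marker. The call of Igfbp2 was lost without P0 replicate 1 (3.04), P0 replicate 2 (2.85), P5 replicate 1 (3.08) or P5 replicate 2 (3.57). The defining markers Dcn, Lum, Foxc1 and Slc6a13 were at 3.05 or less on every array. Of the Schwann cell list only Pmp22 was tested, and it was called higher by 1.28, a call lost without P5 replicate 1 (1.16). Of the ependymal list only Rarres2 was tested, and it was called higher by 2.34, while Foxj1 and Tmem212 were at 2.57 or less on every array. The red blood cell genes Hba-a1 and Hbb-y were at the control level at both ages. The part of these cells in the glial and neuronal results was not tested.

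Several transcription factors of the dorsal inhibitory lineage fell after birth. Of 15 tested 8 were called lower at P5 and none higher, with a median of -1.56, and 5 were called lower with P0 replicates 1 and 2 counted once, or without P0 replicate 1, P0 replicate 2 or P5 replicate 2. Tfap2b, a factor downstream of Ptf1a in dorsal interneurons, was at 9.80 and 7.99 at P5, against 12.22, 11.82 and 11.93 at P0. Lhx1, a LIM-homeodomain factor that keeps the inhibitory identity, was at 8.69 and 9.02 at P5, against 11.80, 11.68 and 11.24 at P0. Zic4 was at 7.55 and 6.70 at P5, against 9.82, 9.55 and 9.86 at P0. These differences were -3.09 ± 0.54, -2.72 ± 0.23 and -2.62 ± 0.29 (SE), with limma adjusted p of 0.0114, 0.00165 and 0.00325.

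Not all of these factors were called. Lbx1, which sets apart the dorsal classes that form the dorsal horn, was at 9.19 and 7.73 at P5 and at 10.21, 9.83 and 9.79 at P0, and was not called (-1.48, limma adjusted p = 0.0527). Tfap2a, a relative of Tfap2b, was not called (-1.56 ± 1.39, SE, limma adjusted p = 0.411), and its P5 arrays lay on either side of P0 replicates 1 and 2, at 10.37 and 10.55. Zic1 fell by less, 0.66 on the log2 scale, and was at 13.56 or more on every array.

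The inhibitory transmitter machinery gave few calls. Of 8 tested genes 1 was called higher and 1 lower, and the median was -0.01, which turned positive at 0.15 with median-centred arrays. Gad1, the other GABA-making enzyme, was at 13.02 and 13.40 at P5 and at 13.23, 13.24 and 12.65 at P0. Slc32a1, which loads GABA and glycine into vesicles, was at 12.41 and 12.47 at P5, against 12.97, 13.22 and 13.32 at P0. Its difference was -0.73 ± 0.16 (SE, limma adjusted p = 0.0214), but 1 of its 3 probe sets went the other way, and the mean of all 3 gave 0.96. The call was also lost without P0 replicate 2 (-0.70), P5 replicate 1 (-0.70) or P5 replicate 2 (-0.76).

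**Figure D3:**
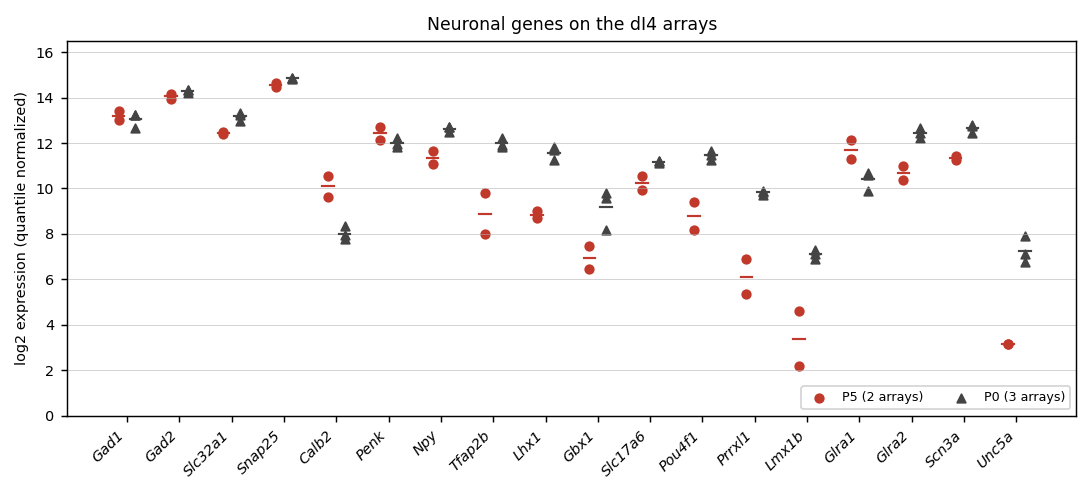
Log2 expression of neuronal genes on each dI4 array, P5 (red circles, 2 arrays) left of P0 (grey triangles, 3 arrays), with bars at the means. Gad1, Gad2 and Snap25 lie close together at both ages, while Tfap2b, Lhx1, Prrxl1, Lmx1b and Unc5a lie lower at P5 and Calb2 and Glra1 higher.

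Among markers of inhibitory subsets of the dorsal horn, 2 of 12 tested were called higher and 1 lower, with a median of 0.01. These counts were near or below the 16.7% and 22.2% of all genes and do not set the markers apart. Calb2, the calcium buffer calretinin, was at 9.63 and 10.55 at P5, against 7.95, 8.35 and 7.76 at P0. Npy, neuropeptide Y, which marks neurons that gate itch and touch, was at 11.06 and 11.65 at P5, against 12.69, 12.72 and 12.48 at P0. Pdyn and Gal, which encode dynorphin and galanin, overlapped between the ages, with differences of -0.58 and -0.45. Penk, which encodes enkephalin, was not called either, with a difference of 0.42.

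Several markers of excitatory dorsal horn neurons fell. Of 10 tested 5 were called lower and none higher, with a median of -0.97, and 3 were lower with P0 replicates 1 and 2 counted once or either left out. Prrxl1, a factor of excitatory neurons in the pain pathway, was at 5.35 and 6.88 at P5, against 9.86, 9.90 and 9.71 at P0. Pou4f1, which marks excitatory dorsal classes, was at 9.42 and 8.17 at P5, against 11.46, 11.27 and 11.63 at P0. Lmx1b, which maintains the glutamatergic phenotype of its class, was at 2.18 and 4.61 at P5, against 7.10, 7.30 and 6.91 at P0, and its call was lost without P0 replicate 1 (-3.70) or P0 replicate 2 (-3.60). Slc17a6 differed by -0.92 ± 0.22 (SE) and lost its call without P0 replicate 1 (-0.91), 2 (-0.95) or 3 (-0.90) or P5 replicate 1 (-0.61).

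Receptors for GABA and glycine included calls in both directions. Of 20 tested genes 5 were called higher and 4 lower, not far from the 16.7% and 22.2% of all genes, so the counts do not set the receptors apart. They were 2 and 3 with P0 replicates 1 and 2 counted once. Without P0 replicate 1 they were 2 and 2, without P0 replicate 2 they were 1 and 3, and without P5 replicate 2 they were 3 and 4. Glra2, the glycine receptor subunit of the fetal cord, was at 10.39 and 10.98 at P5, against 12.65, 12.43 and 12.21 at P0. Glra1, the subunit of the mature cord, was at 11.29 and 12.13 at P5, against 9.91, 10.68 and 10.61 at P0. The Glra2 difference was -1.74 ± 0.24 and the Glra1 difference 1.31 ± 0.36 (SE), with limma adjusted p of 0.00608 and 0.0405. The Glra1 call was lost without P0 replicate 1 (1.06), 2 (1.45) or 3 (1.41) or P5 replicate 2 (0.89), whereas that of Glra2 was kept under each of the 17 alternatives.

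Among the GABA-A receptor subunits, Gabrg1, Gabra4 and Gabrb1 rose by 1.74, 1.07 and 0.77, and Gabrb2 fell by 1.45 on the log2 scale. Gabra2, Gabra3 and Gabra5 were not called, with differences of 0.18, -0.45 and -0.90. Slc12a2, the transporter that loads chloride into young neurons and is also used by glia, was at 10.95 and 12.29 at P5, against 9.76, 9.81 and 9.87 at P0. Its call was lost without P0 replicate 1 (1.78) or P0 replicate 2 (1.81). Slc12a5, which extrudes chloride and makes GABA inhibitory, was high at both ages and not called, at 12.97 and 13.67 at P5 and at 13.90, 13.90 and 13.53 at P0.

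Of 19 tested glutamate receptor genes 4 were called lower, a share near the 22.2% of all genes, and none higher. Their median was -0.23, and 2 were lower without P0 replicate 2 or P5 replicate 1. Grin2b, an NMDA receptor subunit that prevails early in life, was at 10.42 and 10.76 at P5, against 11.86, 12.01 and 12.06 at P0. Grin2d, another early subunit, was at 9.64 and 10.25 at P5, against 11.04, 11.52 and 11.50 at P0, and its call was lost without P0 replicate 2 (-1.33) or P5 replicate 1 (-1.11). Cacng2, which carries AMPA receptors to synapses, fell by 1.59 on the log2 scale. The NMDA subunit of later life, Grin2a, was below the detection filter, at 2.74 and 4.64 at P5 and at 3.03 to 3.22 at P0.

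Of 25 tested voltage-gated channel genes 2 were called higher and 6 lower, against 16.7% and 22.2% of all genes, so that the share of lower calls was near that of all genes. With P0 replicates 1 and 2 counted once they were 1 and 2. Without P0 replicate 1 or 2 they were also 1 and 2, and without P5 replicate 2 they were 1 and 10. Scn3a, the sodium channel of immature neurons, was at 11.24 and 11.45 at P5, against 12.79, 12.76 and 12.44 at P0. Scn1a, a sodium channel that takes over in mature inhibitory neurons, was at 9.17 and 10.15 at P5 and at 11.01, 10.96 and 10.13 at P0, and was not called. Cacna2d1, the calcium channel subunit bound by gabapentin, fell by 2.67 ± 0.50 (SE) on the log2 scale, and its call was lost without P0 replicate 1 (-2.61). Kcna2, a potassium channel of axons, was higher by 1.21, and its call was lost without P5 replicate 1 (0.99).

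Genes of transmitter release were called lower or not at all. Of 24 tested 8 were called lower and none higher, against 22.2% and 16.7% of all genes, with a median of -0.37. The lower calls were 4 without P0 replicate 1 and 2 without P0 replicate 2, where 11.1% and 9.42% of all genes were lower. Without P5 replicate 1, 1 gene was higher and 2 lower. Unc13a, which primes vesicles for fusion, was at 6.38 and 6.47 at P5, against 8.75, 8.77 and 8.68 at P0. Syt4, a synaptotagmin that does not sense calcium in the usual way, fell by 1.42 ± 0.20 (SE) on the log2 scale. Snap25, a core part of the fusion machine and the strongest gene of the list, was at 14.45 and 14.64 at P5 and at 14.88, 14.83 and 14.86 at P0. It was not called, and neither was Syt1, the fast calcium sensor, at 0.43.

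Some genes of growing neurites fell by small amounts. Of 21 tested 8 were called lower and none higher, against 22.2% and 16.7% of all genes, with a median of -0.42. The count was 4 without P0 replicate 1 and 2 without P0 replicate 2, where 11.1% and 9.42% of all genes were lower. Stmn2, a microtubule regulator of growth cones, was at 12.35 and 12.53 at P5, against 13.68, 13.51 and 13.69 at P0. Elavl2, a neuronal RNA-binding protein, fell by 1.14 ± 0.16 (SE) on the log2 scale. Dcx, the microtubule protein of young migrating neurons, was not called, at 14.08 and 13.22 at P5 and at 14.43, 14.38 and 14.42 at P0. Of 14 tested neurofilament and mature neurite genes 3 were called higher and 5 lower, against 16.7% and 22.2% of all genes. The counts were 1 and 2 without P0 replicate 1 or 2. Ina, an early neurofilament protein, was at 11.51 and 11.75 at P5, against 13.25, 13.20 and 13.32 at P0. Nfasc, which anchors nodes of Ranvier on axons and, as another isoform, the glial side of the paranode, was at 13.08 or more at P5, against 9.55, 10.01 and 10.06 at P0, and rose by 3.67 ± 0.33 (SE). Rbfox3, which encodes the neuronal marker NeuN, was at 11.78 and 12.13 at P5, against 12.87, 13.00 and 12.57 at P0, and its call was lost without P0 replicate 1 (-0.83), P0 replicate 2 (-0.76) or P5 replicate 1 (-0.68).

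Axon guidance genes held the most calls of any neuronal list. Of 30 tested 14 were called lower and 4 higher, with a median of -0.86, and with P0 replicates 1 and 2 counted once 11 and 3. Without P0 replicate 1 they were 11 and 2, and without P5 replicate 1 they were 9 and 2. Unc5a, a netrin receptor that mediates repulsion, was at 3.14 and 3.15 at P5, against 6.77, 7.11 and 7.89 at P0. Sema3a, a secreted repellent, was at 7.37 and 7.14 at P5, against 9.32, 9.29 and 9.47 at P0. Robo2, a receptor for the Slit repellents, was at 6.40 and 6.37 at P5, against 7.89, 8.15 and 8.44 at P0. Unc5b, also expressed in oligodendrocytes and vessels, went the other way, at 8.81 and 10.46 at P5, against 4.24, 4.40 and 4.82 at P0. The netrin receptor Dcc and the Slit receptor Robo1 were not called, with differences of 0.48 and -0.26.

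Among 25 tested factors and regulators of neuronal maturation, 4 were called higher and 7 lower, shares near the 16.7% and 22.2% of all genes. They were 2 and 4 without P0 replicate 1 or 2. Hmga2, a chromatin protein of young cells, was at 8.09 and 7.34 at P5, against 9.98, 9.96 and 10.11 at P0. Zfhx3, a homeodomain factor of differentiating neurons, fell by 1.76 ± 0.14 (SE) on the log2 scale. Hlf, a PAR-domain factor, was at 6.06 and 6.06 at P5, against 4.25, 4.64 and 4.79 at P0. Nfia, a factor of both glia and neurons, was at 13.51 and 12.65 at P5, against 11.24, 11.29 and 12.22 at P0, and its call was lost without P0 replicate 1 (1.33), P0 replicate 2 (1.35), P5 replicate 1 (1.07) or P5 replicate 2 (1.93).

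Of 19 tested neuropeptide and peptide processing genes 5 were called lower, a share near the 22.2% of all genes, and 1 higher. Cartpt, the CART peptide, was at the control level at P5, at 1.98 and 2.06, and at 7.51, 7.02 and 6.41 at P0, at least 22.2-fold lower at P5. Adcyap1, which encodes the peptide PACAP, was at 6.14 and 6.45 at P5, against 8.74, 8.60 and 8.55 at P0. Nmb, neuromedin B, was the gene called higher, at 6.77 and 6.38 at P5, against 4.68, 4.50 and 4.21 at P0.

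Over all genes, the 12 largest rises without overlap between the ages were Mag, Gpr17, Fa2h, Mal, AI314604, Gpr37l1, Mobp, Pllp, Srpk3, Nipal4, S100b and Plxnb3, from 10.35 down to 8.19. Of these Mag, Gpr17, Fa2h, Mal, Mobp and S100b stand in the glial lists. The 12 largest falls were Tcim, Wdr90, 2010109K09Rik, Cartpt, Ooep, Scube3, Klhl14, Uncx, Hsd3b3, Tmem121b, Cebpb and B230216N24Rik, from -5.62 to -4.48. Of these only Cartpt stands in a neuronal list. Tcim was at 3.95 and 3.89 at P5, against 9.46, 9.03 and 10.12 at P0. Cebpb, a transcription factor of the stress and inflammatory response, was at the control level at P5 and at 6.26 on all 3 P0 arrays, at least 13.5-fold lower at P5.

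Whether the change from P0 to P5 differed between dI4 and V1 cells was tested in 1 model of both classes, in which V1 replicates 1 and 3 at P0 were averaged and counted once because they were nearly alike. Of the 11592 genes 397 (3.42%) differed, 158 (1.36%) with a more positive and 239 (2.06%) with a more negative change in dI4, and 363 of the 397 were also called for the dI4 change itself. Among 234 neuronal genes none had a more positive and 29 (12.4%) a more negative change in dI4. Among 46 glial genes 4 (8.70%) were positive and 2 (4.35%) negative, which ranged over 1 to 11 and 0 to 7 with 1 array left out. These calls rest on few arrays, and dI4 P0 replicates 1 and 2, also nearly alike, were kept separate in this model. With those 2 averaged as well, the 397 calls became 59, of which 38 were positive and 21 negative. The 29 neuronal calls became 6 without dI4 P0 replicate 1 or 2, 6 with those 2 averaged, none without V1 P0 replicate 2 and 3 without V1 P0 replicates 1 and 3, while the median neuronal difference stayed between -0.75 and -0.46 in all of these and without any other 1 array.

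**Figure D4:**
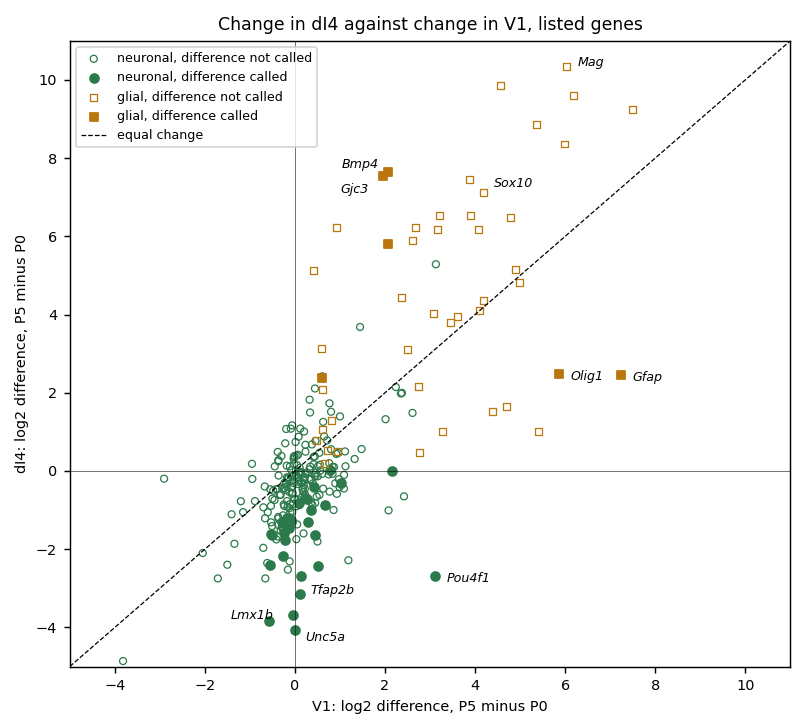
Change between P5 and P0 (log2) in dI4 (vertical axis) against the change in V1 (horizontal axis) for tested neuronal (green circles) and glial (orange squares) genes, normalized over the 11 arrays. Filled symbols mark genes whose changes differed at an adjusted p under 0.05, such as Pou4f1 and Unc5a below the dashed line of equal change and Bmp4 and Gjc3 above it, and Gfap and Olig1 lie below it.

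The 29 neuronal calls were spread over many lists. They included 4 of 10 tested excitatory markers, 5 of 21 genes of growing neurites, 4 of 30 guidance genes and 2 of 15 lineage factors, and no test compared the lists. The Pou4f1 change was -2.69 in dI4 and 3.12 in V1, a difference of -5.81 ± 0.76 (SE, limma adjusted p = 0.0127). The Zic4 change was -2.69 in dI4 and 0.14 in V1, and the Tfap2b change -3.14 in dI4 and 0.11 in V1, and in V1 both genes were near or at background at both ages. For Unc5a the change was -4.07 in dI4 and -0.01 in V1, where it was at 9.30 to 9.61 at P5 and 9.00 to 9.96 at P0. Without V1 P0 replicate 2 each of these 4 calls was lost, with differences that stayed negative whichever array was left out. The Pou4f1 call was also lost without V1 P0 replicates 1 and 3, and that of Tfap2b without any 1 array except P5 replicate 1 or 2 of dI4.

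Glial genes differed in both directions from V1. Bmp4 rose by 7.66 in dI4 and by 2.07 in V1, a difference of 5.58 ± 0.50 (SE, limma adjusted p = 0.00309) that was kept whichever array was left out. Gfap rose by 2.45 in dI4 and by 7.25 in V1, a difference of -4.80 ± 0.83 (SE, limma adjusted p = 0.0319). V1 cells had Gfap at 11.24, 9.95 and 10.75 at P5 and at 4.17, 2.64 and 4.13 at P0, so Gfap was near background in V1 at birth, when it was above 10 in dI4. The Gfap difference lost its call without dI4 P0 replicate 1 or 2, dI4 P5 replicate 2, or V1 P0 replicate 2 or 1 and 3, between -5.54 and -4.04 over all arrays left out. The glial medians were 4.38 in dI4 and 3.24 in V1, and the neuronal medians -0.40 in dI4 and 0.05 in V1.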

How the data were processed

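Expression was measured on 17 arrays of sorted mouse spinal interneurons, of which the 5 of dI4 cells at P5 and P0 were compared and 6 of V1 cells served for the difference between classes. The authors deposited log2 signals per probe set, for which Partek 6.6, GCRMA and RMA are listed with no role, per the submitters' processing notes. Both deposited tables held the same values in all 766717 cells. Per the file headers, the authors also deposited signed folds of V1 over dI4 within an age (a score here, since the inverse is written as a negative number) and their unadjusted p-values, which were not used.

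The 5 arrays were quantile normalized together over 45101 probe sets. Probe sets naming 1 gene were kept, 1 per gene (20678 genes) by the highest mean, and a gene was tested if above the array median on at least 2 of 5 arrays. P5 minus P0 was tested with limma 3.58.1 in R 4.3.3 over 11592 genes, with Benjamini-Hochberg adjustment at 0.05. The difference between classes was fitted over 11 arrays, with V1 P0 replicates 1 and 3 averaged and counted once. The fit was tested on simulated data with independent noise, which cannot show effects of nearly alike arrays or of normalization by age.

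The members and gene lists were chosen with earlier results of these data known. Named genes were a fixed set of class and cell type markers, and the 12 largest called rises and falls without overlap. To these came the 3 largest called rises and falls and 2 strongest uncalled genes of each list. The 8 largest called differences from V1 in each direction were added. Other list members named as examples were chosen after their values were seen. Alternatives covered the normalization, ranks, filters, probe set choice, model and left-out arrays. Promoters are from RefSeq (GRCm38.p6). Some list members are not reported here by name.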

Additional observations from a re-analysis of the deposited data

Results flagged for a closer look

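The change from P0 to P5 differed between dI4 and V1 cells, by the test of the difference itself, for 16 of the genes singled out by the largest differences in each direction. The value given is the dI4 change minus the V1 change (log2), and neither groups of 2 nor of 3 arrays allow a test for a single array that stands apart.

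Mybpc1, a myosin-binding protein gene, changed by 5.34 in dI4 and by 0.01 in V1, a difference of 5.34 ± 0.16 (SE). Bmp4 differed by 5.58, Rnf122 by 5.45, 5730433N10Rik by 5.40 and Lims2 by 5.17. Among the negative differences, C130021I20Rik was at -4.20 and Tcim at -4.23. These 7 calls were kept whichever of the 10 array removals was made.

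Unc5a differed by -4.06, a call lost only without V1 P0 replicate 2, and Pou4f1 by -5.81, lost only without V1 P0 replicate 2 or replicates 1 and 3. Uncx, at -3.91, was lost in 3 of the 10 removals, Lpl, at -4.55, in 4, and Gfap, at -4.80, in 5. Plxnb3, at 4.99, and Lmx1b, at -3.64, were lost in 8, and Gjc3, at 5.57, and Elovl7, at 5.47, in 9. The sign was kept in all 10 removals for each of the 16 genes.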

How the results depend on the processing

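Depth here is the signal over background of few arrays, and P0 replicates 1 and 2 carry much of the precision. Of 130 named genes called, 86 kept their call under every alternative in which they were tested (17, or 16 for some genes). Another 9 lost it only when an array was left out or arrays were averaged. Averaging P0 replicates 1 and 2 ended 31 calls, no filter 17, percentile ranks 16 and the replicate block 15. Slc32a1 reversed to 0.96 with the mean of its probe sets, and the cause was not tested. Genes called higher and lower numbered 1162 and 1229 (2391 in all) with P0 replicates 1 and 2 averaged, and 3911 were lower with no filter, where more genes were tested. With 1 array left out, 1081 to 2139 were higher, 1092 to 2868 lower and 2173 to 5007 called in all. Median centring gave 2390 higher and 1758 lower, 57.6% higher of those called against 43.0%. The replicate block gave 1780 higher and 2183 lower. Deviations of same-numbered arrays correlated at -0.32 and 0.21. The deviations of the P5 arrays from their mean mirror each other, so these values cannot show whether the numbers pair the arrays. The block is no test of a weaker effect.

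For the difference from V1, more positive and more negative changes numbered 322 and 367 (689 in all) with normal scores of ranks, 406 and 671 (1077) with V1 P0 replicates 1 and 3 kept separate, and 399 negative (619 in all) with a trended and robust variance. They were 38 and 21 (59) with dI4 P0 replicates 1 and 2 averaged, 63 and 62 (125) with the replicate block, and 34 and 17 (51) without V1 P0 replicates 1 and 3. With 1 array left out they ranged over 30 to 216 positive, 11 to 263 negative and 41 to 455 in all. Median centring made 28.9% of these calls positive, against 39.8%. The cause of these movements was not tested, apart from the fewer arrays that removal or averaging leaves.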

Other observations

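Genes of thyroid and glucocorticoid hormone response were described in no comparison above. Of 11 tested 5 were called higher and 1 lower at P5, against 16.7% and 22.2% of all genes. Dio2, which activates thyroid hormone and is made by astrocytes, was at 9.56 and 9.64 at P5, against 3.55, 4.13 and 3.28 at P0. Nr3c1, the glucocorticoid receptor, was at 12.05 and 11.42 at P5, against 9.03, 9.31 and 9.08 at P0. Nr3c2, the mineralocorticoid receptor, rose by 2.88 ± 0.35 and Sgk1, a kinase induced by both hormones, by 1.79 ± 0.24 (SE). Fkbp5, a chaperone that glucocorticoids induce, was at 9.20 and 9.23 at P5, against 9.77, 9.89 and 10.02 at P0. It was the gene called lower, and its call was lost without P0 replicate 1 (-0.74), P0 replicate 2 (-0.68), P5 replicate 1 (-0.67) or P5 replicate 2 (-0.70), with P0 replicates 1 and 2 averaged and with the replicate block.

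Immediate early genes, which cell dissociation can switch on, were detected at both ages. Of 13 tested 1 was called higher and 1 lower, fewer than the 16.7% and 22.2% of all genes. Neither was called without P0 replicate 1, P0 replicate 2, P5 replicate 1 or P5 replicate 2, or with P0 replicates 1 and 2 averaged. Fos was at 13.35 and 12.86 at P5 and at 13.19, 12.77 and 13.37 at P0, so that the ages overlapped.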
